A study of Mus musculus with 12 samples.

Results

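The Sprr genes encode small proline-rich proteins. In squamous epithelia such as skin and oesophagus these proteins are cross-linked by transglutaminases into the cornified envelope, the tough layer beneath the membrane of dying surface cells. Their genes lie in a cluster within the epidermal differentiation complex. In the intestine, which has no cornified layer, Sprr2a is known as an epithelial transcript induced by resident bacteria, and its protein is known to act against Gram-positive bacteria. Transcript levels of 6 of these genes (Sprr1a, Sprr2a1, Sprr2a2, Sprr2a3, Sprr2b and Sprr3) were examined in the deposited table of 55891 genes, taken by gene symbol. They were picked by name with genotype differences in these libraries already known, so their genotype differences are given as a description without a p-value.

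The libraries came from scraped mucosa of the ileum, the last stretch of the small intestine, from 6 mice labelled Erbb3-FF and 6 labelled ERBB3-dIE, all at baseline. By litter, 4 of the Erbb3-FF and 3 of the ERBB3-dIE mice were from A, the other 2 and 3 from B. Erbb3 encodes a receptor tyrosine kinase of the ErbB family. The sources used here do not spell out the alleles, the cells in which Erbb3 was altered, a Cre driver, or the age, sex and strain of the mice. Values are TPM, which scale each gene by its transcript length and each library to a total of 1000000, so depth per library is unknown. Per library, 12344 to 13364 genes reached 1 TPM. The level of Erbb3 itself, 104 to 206 TPM in ERBB3-dIE mice against 87.3 to 151 TPM in the other genotype, did not separate the labels, and a gene total checks nothing where the altered part is a few exons. Annotated ribosomal sequence took up to 10.8% of the TPM in Erbb3-FF mice 5 and 6.

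Of 17 Sprr genes in the table, 11 were listed at 0 in all 12 libraries, Sprr3 among them. Sprr3 is known mainly from the oesophagus, and at 0 TPM it enters no comparison. The other 5 members passed the filter of at least 1 TPM in at least 6 libraries, Sprr2b with 11 libraries at that level and the remaining 4 with all 12. Outside the members, Sprr2h was the single Sprr gene above 0, in 4 libraries, and it reached at most 2.80 TPM. In RefSeq gene order (GRCm38.p6) the expressed genes were not one block. Sprr2a1, Sprr2a2, Sprr2a3 and Sprr2b came first, a run of Sprr2 genes at or near 0 followed, then Sprr1b and Sprr3 at 0, and Sprr1a lay beyond them.

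Promoter windows are shown for Sprr2a1, which stands for the near-identical Sprr2a copies, for Sprr2b and for Sprr1a, because they show how far the members share upstream sequence. All 6 members matched the RefSeq table (GRCm38.p6, an earlier build than that of the expression table). Each run covers the 250 bases before the annotated start, 5′ to 3′ on the gene's strand. The first is that of Sprr2a1, chr3:92215585-92215834 on the plus strand. The second is that of Sprr2b, chr3:92316455-92316704 on the plus strand, and the last that of Sprr1a, chr3:92485882-92486131 on the minus strand. Capitals mark matches to an AP-1 site (TGANTCA), the octamer (ATTTGCAT), a TATA box (TATAAA) and a STAT6-type repeat (TTC and GAA with 4 free bases between), each searched on both strands.
Sprr2a1: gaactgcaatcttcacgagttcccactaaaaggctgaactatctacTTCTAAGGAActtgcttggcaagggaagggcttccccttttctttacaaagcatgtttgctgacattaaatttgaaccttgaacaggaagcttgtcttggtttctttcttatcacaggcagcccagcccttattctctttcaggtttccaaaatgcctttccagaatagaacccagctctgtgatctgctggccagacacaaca
Sprr2b: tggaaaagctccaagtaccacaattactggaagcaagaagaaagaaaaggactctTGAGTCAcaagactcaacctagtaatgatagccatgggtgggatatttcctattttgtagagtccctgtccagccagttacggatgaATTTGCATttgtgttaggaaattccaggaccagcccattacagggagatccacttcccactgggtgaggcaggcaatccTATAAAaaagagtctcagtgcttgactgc
Sprr1a: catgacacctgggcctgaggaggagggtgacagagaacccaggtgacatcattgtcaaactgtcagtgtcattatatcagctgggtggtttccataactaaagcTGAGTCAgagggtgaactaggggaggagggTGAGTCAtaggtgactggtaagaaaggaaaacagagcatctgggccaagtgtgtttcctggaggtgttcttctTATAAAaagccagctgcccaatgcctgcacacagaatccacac

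The 300-base windows of Sprr2a1 and Sprr2a2 were identical letter for letter. That of Sprr2a3 was identical over the 272 bases it shares with them, its annotated start lying 28 bases off. These 3 genes held the STAT6-type repeat (5.86% of 27025 promoters of the same length do) and no AP-1, octamer or TATA letters. Sprr2b held 1 AP-1 site from −195 to −189, the octamer from −108 to −101 and a TATA box from −29 to −24. Sprr1a held 2 AP-1 sites, from −146 to −140 and from −116 to −110, and a TATA box from −43 to −38. AP-1 letters occurred in 9 of 14 Sprr promoters and in 6.87% of all promoters, the octamer in 7 of 14 and 1.61%, and the TATA box in 10 of 14 and 12.97%. The windows of Sprr2a1 and Sprr2b are not aligned to the same point. The longest stretch common to both, accagcccattacaggga (18 bases, shown because it marks the offset), begins at +6 in Sprr2a1 and at −80 in Sprr2b, an offset of 85 bases. Counted by that offset with no gaps, the TATA box position of Sprr2b falls past the Sprr2a1 window, so TATA letters may lie outside it. The AP-1 and octamer positions of Sprr2b fall inside the Sprr2a1 window, which held neither. At that offset 35.3% of the 215 overlapping bases were the same, so the positions are approximate.

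Sprr2a2 was by far the most abundant member. It ranked between 6th and 11th of all genes by TPM in Erbb3-FF mice and between 10th and 27th in ERBB3-dIE mice. Over all 12 mice the mean was 8865 TPM for Sprr2a2, 450.5 for Sprr2a1, 145 for Sprr2a3, 29.1 for Sprr1a and 2.64 for Sprr2b. Each of the 12 libraries showed this same order. Across mice the ranges of Sprr2a1 and Sprr2a3 overlapped, as did those of Sprr2a3 and Sprr1a, while Sprr2a2 and Sprr2a1, and Sprr1a and Sprr2b, were separate. Together the 3 Sprr2a genes made up 0.431% to 1.67% of a library's TPM.

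The split of Sprr2a between its copies rests on how reads were assigned. Of the 75-base windows in the GENCODE M21 transcripts of Sprr2a1 (GRCm38; 75 bases is the read length), 90.7% also occur in Sprr2a2 and 45.5% in Sprr2a3. Only 5.74% occur in no other Sprr gene. For Sprr2a2 the unshared share was 5.34%, and its 722-base transcript has no window that Sprr2a1 lacks. Sprr2a3 is more distinct, with 52.5% of windows unshared, Sprr2b has 96.1%, and Sprr1a and Sprr3 have 100%. Sprr2a1 and Sprr2a2 levels are therefore uncertain one by one, and their sum is given beside them.

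The level per length also depends on which transcript is annotated. In the authors' deposited table the mean normalized count (baseMean) was 51195 for Sprr2a2 and 14377 for Sprr2a1, a ratio of 3.56, whereas the ratio of their mean TPM was 19.7. Sprr2a1 had 31.9 normalized counts per TPM and Sprr2a2 5.77. Genes with 1 annotated transcript of 2900 to 3100 bases had a median of 32.5 (35 genes), and those of 600 to 800 bases a median of 5.25 (125 genes). In GENCODE M21 Sprr2a1 has a single transcript of 3003 bases, and Sprr2a2 has transcripts of 722 and 2867 bases. Sprr2a2 thus supplied 93.7% of the 3 copies' TPM and 76.6% of their normalized counts, Sprr2a1 4.76% and 21.5%, and Sprr2a3 1.54% and 1.93%.

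**Figure D1:**
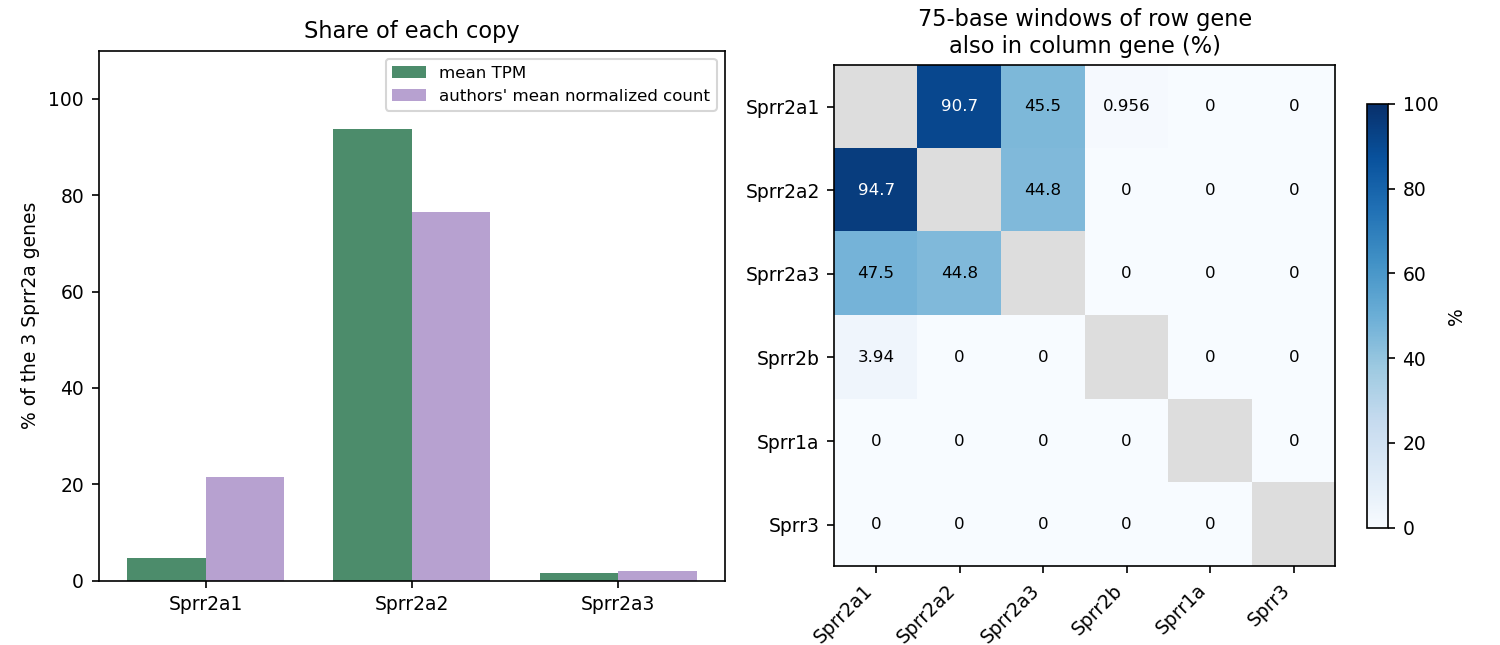
Left, share of each Sprr2a copy (% of the 3 genes, y axis) in mean TPM over 12 mice and in the authors' mean normalized count. Right, percent of 75-base transcript windows of the row gene that also occur in the column gene. Sprr2a1 holds 4.76% of the TPM but 21.5% of the normalized counts, and shares 90.7% of its windows with Sprr2a2.

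The summed Sprr2a level was lower in ERBB3-dIE mice, at 59.5% of the Erbb3-FF mean. The sum averaged 11862 ± 2490.3 TPM over the 6 Erbb3-FF mice and 7059 ± 2395 TPM over the 6 ERBB3-dIE mice (SD). In Erbb3-FF mice of litter A it was 10850.3, 16719, 9914 and 11938 TPM, and in those of litter B 10308 and 11444 TPM. In ERBB3-dIE mice of litter A it was 10544, 8576 and 7997 TPM, and in those of litter B 6056, 4872 and 4309 TPM. The 3 ERBB3-dIE mice of litter B were the lowest of all 12, and ERBB3-dIE mouse 4 (10544 TPM) lay inside the Erbb3-FF range. With litter in the model the log2 difference on the log2(TPM + 0.5) scale was −0.71 (SE 0.18, 95% interval −1.11 to −0.31), where the median over all 12605 tested genes was −0.00066. In a scraping, fewer cells that make a transcript and less transcript per cell cannot be told apart.

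Sprr2a2, the main copy, followed the sum. Its lowest, median and highest values were 9312, 10459.5 and 15465 TPM for Erbb3-FF. For ERBB3-dIE they were 4054, 6600.2 and 9779.9 TPM. The log2 difference was −0.72 (SE 0.18), and the ranges overlapped through ERBB3-dIE mouse 4 alone, which exceeded Erbb3-FF mice 1 (9760.4 TPM) and 5 (9312 TPM). Sprr2a1 had no such overlap. Erbb3-FF mice 1 to 6 had 505, 548, 518, 992, 493 and 528 TPM, and ERBB3-dIE mice 1 to 6 had 206, 173, 158, 485, 431 and 369 TPM. Erbb3-FF mouse 4 stood well above the other 5 of its genotype, and ERBB3-dIE mice 1 to 3, the litter B mice, stood below the other 3. The log2 difference of Sprr2a1 was −0.94 (SE 0.23), with means of 597 ± 194 and 304 ± 142 TPM. The ratio of Sprr2a1 to Sprr2a2 within a library, which no scaling of libraries can move, was 0.0361 to 0.0389 in ERBB3-dIE mice of litter B. It was 0.0492 to 0.0538 in those of litter A and 0.0468 to 0.0641 in Erbb3-FF mice. Given the shared windows, this ratio carries the same uncertainty of read assignment.

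Sprr2a3, the copy with the most sequence of its own among the 3, did not share this direction. In Erbb3-FF mice it was 239.8, 262, 108 and 121 TPM in litter A and 42.7 and 69.0 TPM in litter B. In ERBB3-dIE mice it was 279.8, 123 and 137 TPM in litter A and 141, 123 and 96.7 TPM in litter B. Erbb3-FF mice of litter B were the 2 lowest of the 12, and otherwise the genotypes overlapped. The log2 difference was 0.46 (SE 0.32, 95% interval −0.25 to 1.17), an interval that spans 0 and does not show equal levels. It was 0.23 without Erbb3-FF mouse 1 (0.23 to 0.64 over the analyses without 1 mouse) and 0.28 with no litter term.

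Sprr2b, a low-level relative whose upstream window held other motif letters than those of Sprr2a, was also lower in ERBB3-dIE mice. Erbb3-FF mice 1 to 6 had 2.64, 2.19, 4.40, 6.84, 4.24 and 2.54 TPM, and ERBB3-dIE mice 1 to 6 had 1.92, 0.59, 1.33, 1.75, 1.36 and 1.90 TPM. The genotypes did not overlap, although Erbb3-FF mouse 2 (2.19 TPM) and ERBB3-dIE mouse 1 (1.92 TPM) were close. The log2 difference was −0.99 (SE 0.24), which understates the change of so low a gene. The ERBB3-dIE mean of 1.48 ± 0.50 TPM was 38.8% of the Erbb3-FF mean of 3.81 ± 1.75 TPM. The authors' deposited table gives it a mean normalized count of 17.5, so few reads stand behind these values.

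Sprr1a, known as a transcript induced in stressed and injured cells, lay the other way with a wide spread. Erbb3-FF mice 1 to 6 had 19.4, 23.5, 16.8, 33.3, 12.2 and 21.7 TPM, and ERBB3-dIE mice 1 to 6 had 40.8, 10.4, 38.8, 61.2, 56.1 and 15.2 TPM. ERBB3-dIE mice 1, 3, 4 and 5 were above every Erbb3-FF mouse, while mice 2 and 6 lay at the low end of all 12. The log2 difference was 0.65 (SE 0.44, 95% interval −0.31 to 1.60), and 0.42 without ERBB3-dIE mouse 4 (0.42 to 0.94 over the analyses without 1 mouse). ERBB3-dIE mice 4 and 5, the highest, also had the highest summed smooth muscle markers (162 and 167 TPM over 9 genes, against 4.14 to 48.0 TPM in the other 10 mice), and the part of this in the Sprr1a values was not tested. With smooth muscle genes as a covariate the difference was 0.58.

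**Figure D2:**
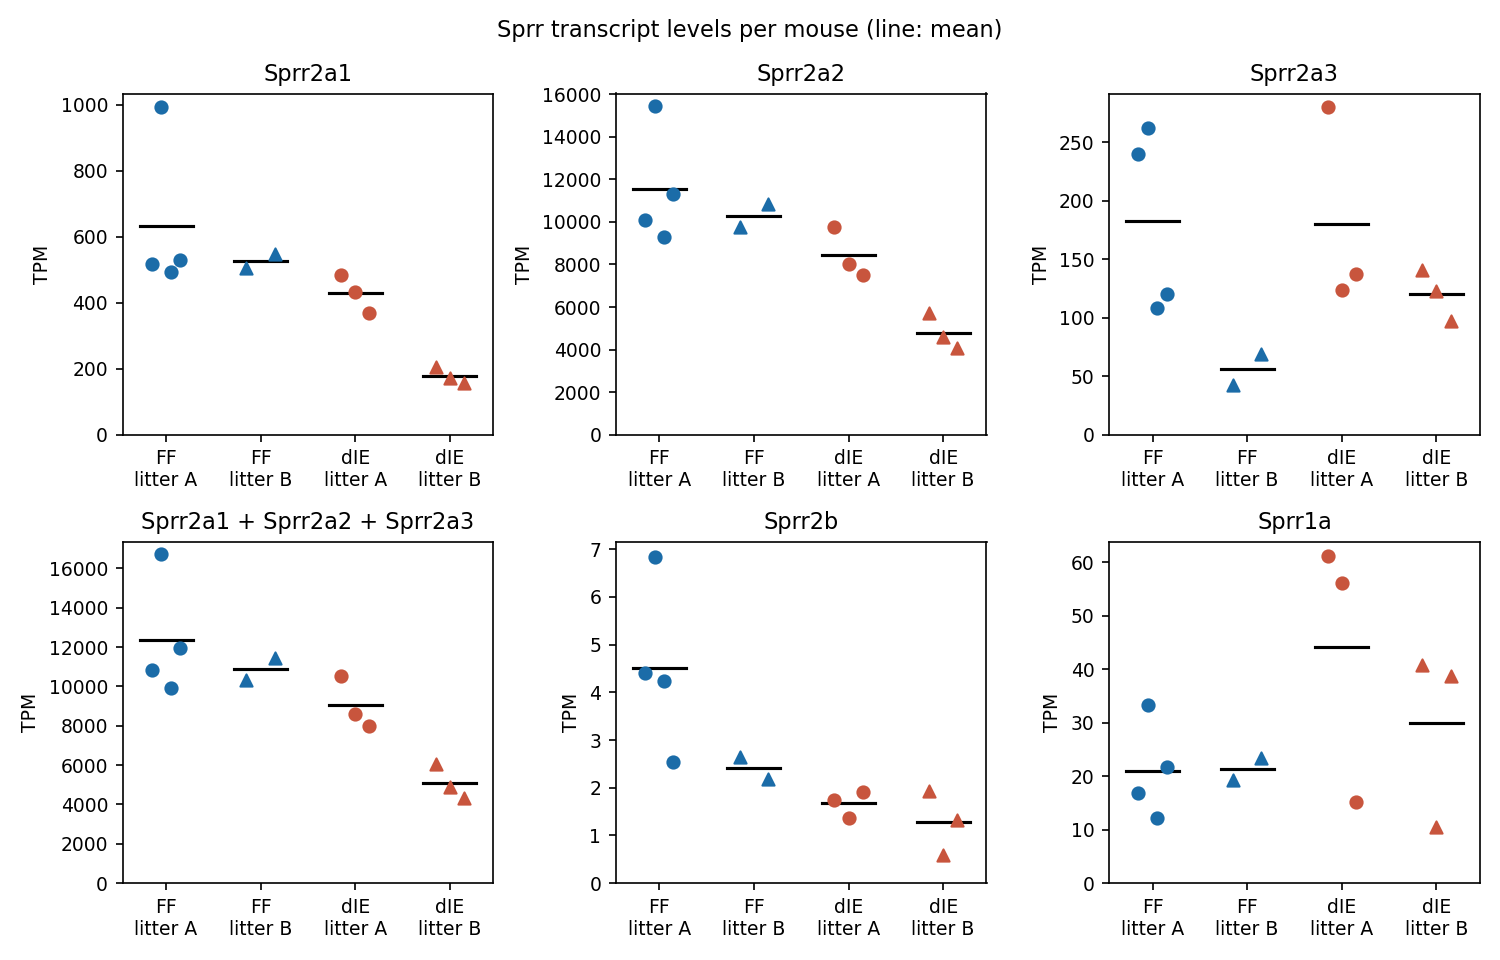
TPM of each Sprr member above 0 and of the summed Sprr2a copies (y axes, linear from 0) for each mouse, by genotype and litter (x axis). Each point is 1 mouse and each line the mean. For Sprr2a1 all ERBB3-dIE mice sit at or below 485 TPM and all Erbb3-FF mice at or above 493 TPM, while Sprr1a and Sprr2a3 overlap.

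In the limma fit over all genes, 3 of the 5 tested members (Sprr2a1, Sprr2a2 and Sprr2b) were past an adjusted p of 0.05 between genotypes, all lower, against 5.36% of all tested genes in either direction (3.7% lower and 1.66% higher). Ranges of TPM did not overlap for 2 members (Sprr2a1 and Sprr2b), against 2.44% of all genes. Since this contrast led to the choice of the genes, nothing is read from these counts. They were also fragile. Without Erbb3-FF mouse 1, 2 or 4 or ERBB3-dIE mouse 2, 3, 5 or 6, no member was past the threshold, without ERBB3-dIE mouse 1 there was 1, and without any of the other 4 mice there were 2. No member was past it in the fit without a litter term or with mouse number as a block. The count was 3 without the pair of libraries rich in ribosomal sequence. The authors' deposited table gives log2 fold changes of −1.08 for Sprr2a1, −0.79 for Sprr2a2, −1.36 for Sprr2b, 0.07 for Sprr2a3 and 0.80 for Sprr1a, the same signs for all 5.

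Within litters the sizes differed. In litter A alone the log2 difference of the Sprr2a sum was −0.43 (95% interval −0.95 to 0.09), and in litter B alone it was −1.11 (−1.68 to −0.55). As a share of the Erbb3-FF mean these were 73.2% and 46.7%. Sprr2a1 had −0.51 in litter A and −1.56 in litter B. Sprr2b had −1.14 in litter A and −0.78 in litter B, and Sprr1a 0.92 and 0.26. Sprr2a3 had −0.01 in litter A and 1.12 in litter B. The test of the difference itself, the interaction of litter and genotype, called none of the 5 members (limma adjusted p from 0.385 for Sprr2a1 to 0.853), with 1 at an unadjusted p under 0.05. It called 0.0% of all genes, with 1174 at an unadjusted p under 0.05. For the Sprr2a sum the interaction was −0.68 (95% interval −1.40 to 0.04).

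**Figure D3:**
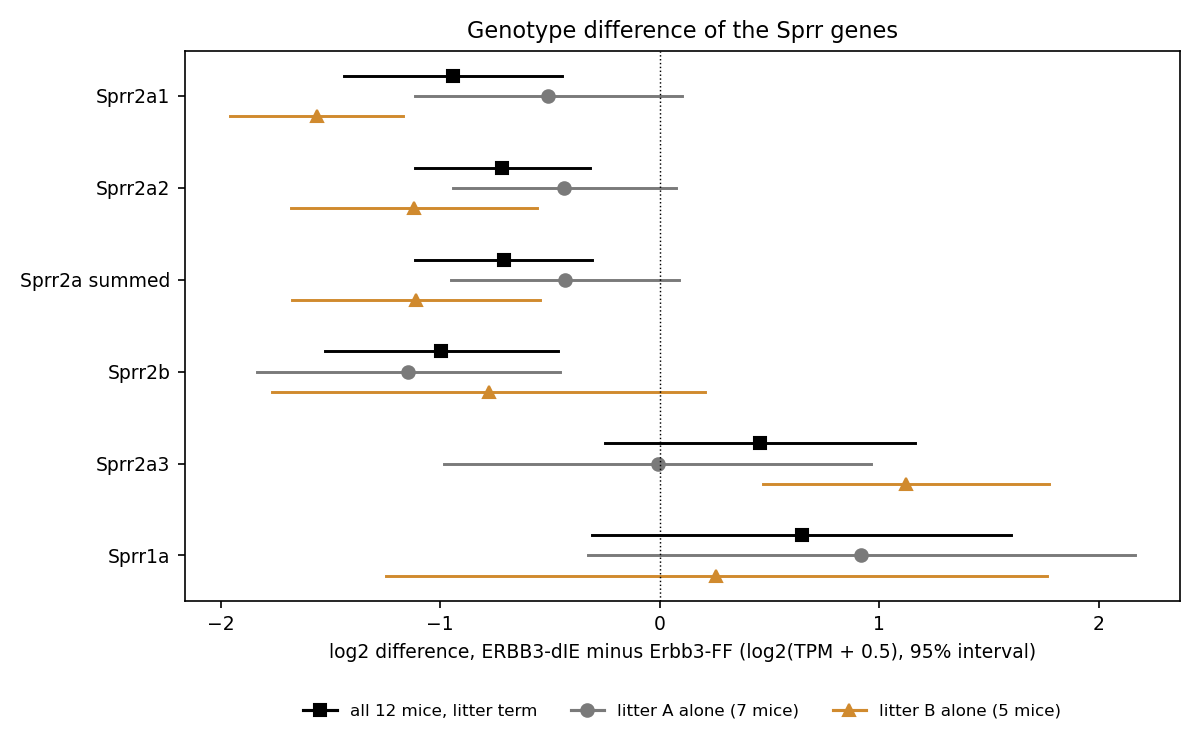
Log2 difference in log2(TPM + 0.5), ERBB3-dIE minus Erbb3-FF (x axis), for each Sprr gene and the summed Sprr2a copies (y axis), with 95% intervals from limma. Squares are all 12 mice with a litter term, circles litter A alone and triangles litter B alone. The Sprr2a sum moves from −0.43 in litter A to −1.11 in litter B, and Sprr2a3 from −0.01 to 1.12.

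The litter contrast played no part in choosing the genes and was tested. All 5 members had lower values in litter B than in litter A with genotype in the model, Sprr1a with a sign that turned without ERBB3-dIE mouse 2, with the smooth muscle covariate or with mouse number as a block. Mouse number 3 is the only number with mice of both litters. With the block the litter difference rests on that pair alone, so that setting cannot test the litter result. The summed Sprr2a level was lower by 0.52 on the log2 scale (log2 difference −0.52, SE 0.19, 95% interval −0.93 to −0.11; exact 2-sided permutation p = 0.0333 over 300 relabellings within genotype, the smallest possible being 0.00333). The exact p stayed under 0.05 in 4 of the 12 analyses without 1 mouse. It was 0.05 to 0.0733 without Erbb3-FF mouse 1 or 4 or any one of the 6 ERBB3-dIE mice. With smooth muscle genes as a covariate the difference was −0.39 (SE 0.21) and no longer past the threshold. Most of the gap lay in ERBB3-dIE mice, with means of 9039 TPM in litter A and 5079 TPM in litter B, against 12355 and 10876 TPM in Erbb3-FF mice. Another split nearly coincided with litter. The summed level of the ileum markers Slc10a2 and Fabp6 was 27141 to 46221 TPM in mice 1 to 3 of both genotypes and 6531 to 10905 TPM in mice 4 to 6. Of the former only Erbb3-FF mouse 3 belongs to litter A, and without it the litter difference of the Sprr2a sum was −0.56 (exact permutation p = 0.03). Slc10a2 was a small part of the summed ileum markers, averaging 195 TPM (SD 32.8) for Erbb3-FF and 91.9 TPM (SD 29.8) for the other genotype. Its own litter difference was 0.26 (limma adjusted p = 0.450), so the split in the summed markers is that of Fabp6. Goblet cell markers had 4 of 8 higher in litter B, and 0 with no filter, with mouse number as a block, with the smooth muscle covariate or without the pair of ribosomal-rich libraries. Other goblet markers lay the other way: Spink4 −1.04, Agr2 −0.46 and Spdef −0.40 (limma adjusted p = 0.0508, 0.0913 and 0.0601). Array weights gave 4 higher and 3 lower, quantile normalization or 5 TPM in 6 libraries 4 and 2, and median-of-ratios scaling 2 and 1. The part of these shifts in the litter difference was not tested.

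Gene by gene, limma put 3 of the 5 members at an unadjusted p under 0.05 between litters, against 3712 of all 12605 tested genes. In either direction, 20.4% of tested genes had a larger litter difference than the Sprr2a sum. After adjustment limma called none of the 5 members, while it called 8.55% of all tested genes (7.16% higher and 1.4% lower in litter B). That split of 902 higher and 176 lower genes was 356 and 243 with median-of-ratios scaling, 678 and 453 with quantile normalization and 330 and 135 when rescaled without mitochondrial genes. The litter difference was −1.03 for Sprr2a3 (adjusted p = 0.0702), −0.76 for Sprr2a1 (adjusted p = 0.0628) and −0.50 for Sprr2a2 (adjusted p = 0.103). Sprr2b had −0.52 (adjusted p = 0.183) and Sprr1a −0.23 (adjusted p = 0.755). Sprr2a1 passed with quantile normalization (adjusted p = 0.0384), after rescaling without ribosomal sequence (0.0474), with array weights (0.0331) and without Erbb3-FF mouse 3 (0.0266). Sprr2a3 passed with quantile normalization (0.0459) and with array weights (0.0416).

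Over the 12 mice Sprr2a1 and Sprr2a2 varied closely together. Pearson's r of log2(TPM + 0.5) was 0.99 and Spearman's rho 0.97, and r was 0.97 without the 2 mice farthest from the median of Sprr2a1 and 0.96 after litter and genotype were removed. These genes share most of their reads' possible origins. Pooled values run over the genotype contrast with which the genes were chosen, so all correlations here are a description without a p-value. For Sprr2b and the Sprr2a sum the pooled r was 0.79 and rho 0.74, but r was 0.21 after litter and genotype were removed. Within genotypes it was 0.58 in Erbb3-FF and 0.54 in ERBB3-dIE mice (n = 6 each). Pooled without the 2 farthest mice r was 0.67. The pooled relation includes the genotype difference of both.

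For Sprr1a and the Sprr2a sum the pooled r was 0.05 and rho 0.08, with r = −0.10 without the 2 farthest mice. Within Erbb3-FF mice r was 0.88, within ERBB3-dIE mice 0.44, and with litter and genotype removed 0.58. Sprr2a3 had r = 0.21 and rho = 0.03 with Sprr2a1, and r = 0.16 without the 2 farthest mice. Within the genotypes r was 0.56 and 0.67, and with litter and genotype removed 0.04.

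**Figure D4:**
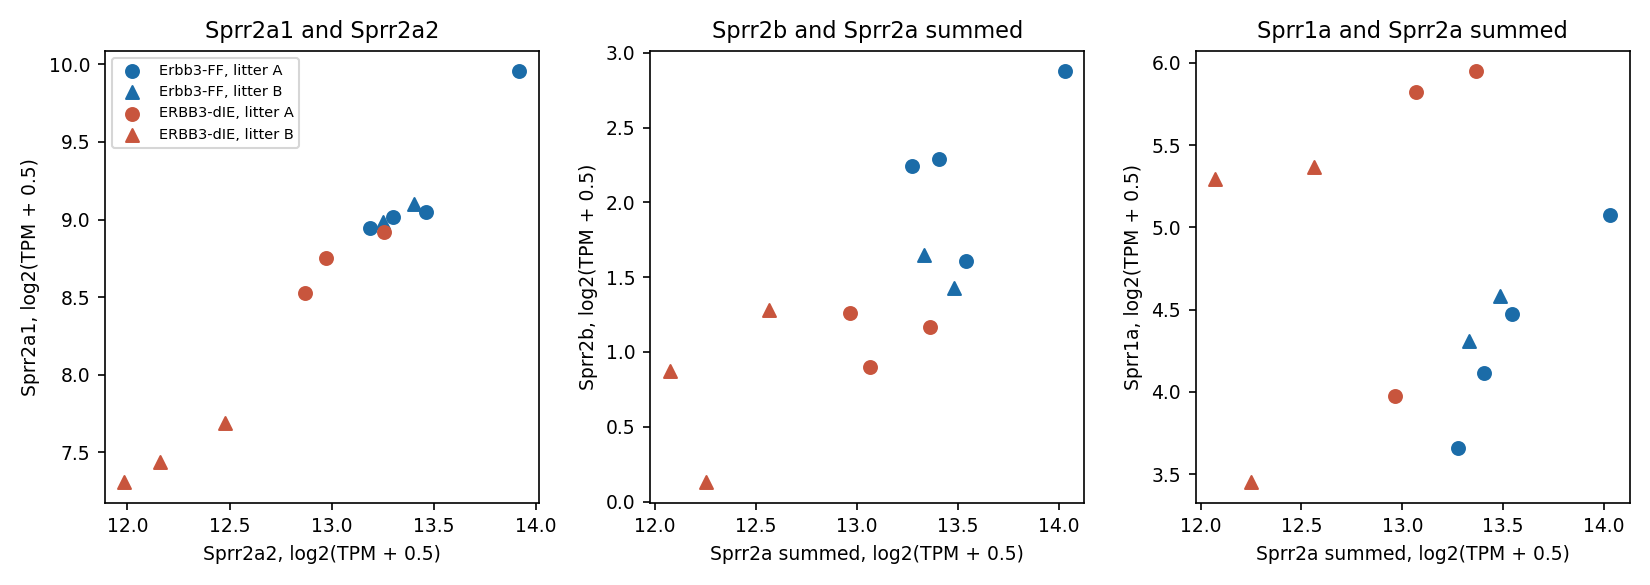
Log2(TPM + 0.5) of pairs of Sprr genes over 12 mice, with each point 1 mouse, colour the genotype and shape the litter. Sprr2a1 and Sprr2a2 lie on a line (r = 0.99), Sprr2b and the Sprr2a sum have r = 0.79 (0.21 after litter and genotype are removed), and Sprr1a and the Sprr2a sum have r = 0.05.

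The gene lists from here on were chosen with earlier results of these data known, so their genotype p-values are given as a description. Other genes of the cornified envelope and the epidermal differentiation complex were mostly at the floor. Of 38 listed, 37 were in the table, 12 were at 0 in all libraries and 10 were tested, of which 1 fell between genotypes and none rose (median log2 difference −0.05). That gene was Dsp, encoding the desmosomal plaque protein desmoplakin, from 82.2 ± 11.5 to 51.7 ± 5.21 TPM (log2 difference −0.66, limma adjusted p = 0.0101). In this list 3 genes were lower when rescaled without ribosomal sequence or with array weights, and 2 of 6 at 5 TPM in 6 libraries. Of the 8 tested S100 calcium-binding protein genes of the same complex, S100a10 fell from 1347 ± 255 to 985 ± 206 TPM (−0.53, adjusted p = 0.0275). No S100 gene passed with no filter or with no litter term. The list median was 0.0024, and stayed above 0 under the other pseudocounts and most scalings. It was below 0 when rescaled without ribosomal sequence (−0.04), with no filter (−0.09), with no litter term (−0.06) and with mouse number as a block (−0.16). The same held with the smooth muscle covariate (−0.01), without the pair of ribosomal-rich libraries (−0.05) and in litter B alone (−0.29). Keratinocyte markers were near the floor, with a summed level over 10 genes of 3.72 to 6.09 TPM for Erbb3-FF and 3.83 to 6.33 TPM for ERBB3-dIE, and Krtdap at 0.

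Of 17 tested factors of the families known at SPRR promoters, 2 fell and none rose between genotypes (median −0.23). Both are AP-1 subunits: Jun went from 35.5 ± 6.67 to 21.7 ± 2.58 TPM (−0.68, adjusted p = 0.0253) and Fosl2 from 48.4 ± 12.4 to 31.7 ± 5.01 TPM (−0.65, adjusted p = 0.0180). A further 1 of these factors was higher with quantile normalization, without mitochondrial genes or with the smooth muscle covariate. Only 1 was lower with no filter or with no litter term. In the type 2 cytokine response, a known inducer of Sprr2a during worm infection, none of 8 tested genes passed (median 0.33), while 1 was higher with array weights and 1 lower with the filter at 3 libraries. Its smallest p was that of Retnlb, a goblet cell lectin of the resistin family, whose mean went from 6.04 ± 10.05 TPM to 141 ± 215 TPM with a spread larger than the mean (log2 difference 3.44, adjusted p = 0.105). The litter difference of Retnlb was larger in size, at −4.49 (limma adjusted p = 0.0393). Il5 and Il13 were at 0 in all libraries. Of 17 tested microbe-induced and antimicrobial genes none passed between genotypes, with a median of 0.63, opposite in sign to the Sprr2a sum. With median-of-ratios scaling, without mitochondrial genes, with robust empirical Bayes, with the smooth muscle covariate or at 5 TPM in 6 libraries 2 of them were higher, and with array weights 3. Between litters 7 of these 17 were lower in litter B and 2 higher (median −0.79, against 0.05 over all tested genes), the same direction as the Sprr2a litter difference. That count was 7 and 2 under all 4 other scalings, 2 and 1 with no filter on low values, and 0 and 0 with mouse number as a block, with the smooth muscle covariate or without the pair of ribosomal-rich libraries. With the block the median was 0.05, but there the litter difference rests on mouse number 3 alone and cannot test litter. Among 12 tested injury-associated epithelial genes, Ly6a rose from 21.6 ± 6.06 to 54.2 ± 24.4 TPM (1.30, adjusted p = 0.0252) and none fell (median 0.03). No gene of that list passed with no filter, with no litter term or without the pair of ribosomal-rich libraries (median −0.29), and array weights gave 2 higher and 1 lower (median −0.11). With mouse number as a block no gene of the cornified envelope, S100, factor or injury lists passed between genotypes.

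Markers of the cells of the scraping moved with genotype as well. Their p-values too are a description, since these lists were chosen with earlier results known. Upper villus enterocyte genes had 5 of 8 lower (median −1.99), and their summed level was 1329 to 2096 TPM for Erbb3-FF and 888 to 1264 TPM for ERBB3-dIE. Nt5e, the surface enzyme that forms adenosine, differed by −2.70 (adjusted p = 0.000441). Goblet cell markers had 4 of 8 higher (median 0.78), with summed levels of 18784 to 30764 and 33249 to 67811 TPM, and Spink4 differed by 1.74 (adjusted p = 0.00842). Of 6 Paneth cell markers 1 was higher, Mmp7, just past the threshold (adjusted p = 0.0496) and not called under most other settings (no filter, no litter term and a pseudocount of 0.1 among them), and summed levels overlapped, at 3878 to 13375 and 5428 to 12205 TPM. T cell markers had 3 of 5 higher (none with no filter on low values, with the block or without the pair of ribosomal-rich libraries), with summed levels of 71.0 to 168 and 146 to 569 TPM. Of the general epithelial markers 1 of 6 was lower, Krt20 (−0.59, adjusted p = 0.0138), and none was at 0. The count lower was 3 with quantile normalization, when rescaled without ribosomal sequence or with array weights. It was 2 with the smooth muscle covariate or at 5 TPM in 6 libraries. In either litter alone at most 1 gene of any of these lists passed between genotypes. The part of these shifts in the Sprr values was not tested.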

How the data were processed

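Mucosal scrapings of 12 mice were sequenced with single-end reads of 75 bases, per the labels' protocols. Salmon 1.10.0, DESeq2, CASAVA and the build GRCm39 are named in the submitters' processing notes. The authors deposited 1 table of TPM per library, beside DESeq2-style columns, named in the file headers. These deposited columns are a signal (normalized counts averaged over libraries), a log2 fold change with its standard error, a Wald score, and p-values. The first 2 kinds are printed here as the authors' values, and a log2 ratio of mean TPM was not used. The annotation is not given in the sources used here.

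TPM are not counts, so no count model was fitted. Log2(TPM + 0.5) of the 12605 genes that reached 1 TPM in 6 or more libraries was fitted with limma 3.58.1 (R 4.3.3, variance trend) on litter and genotype, and adjusted p-values are Benjamini-Hochberg over all of them, with a threshold of 0.05. Summed Sprr2a TPM entered the fit as an extra feature outside the adjustment. The litter difference of the sum was tested by exact permutation. In simulated data 69.9% of genes given a genotype change of 1 (log2) were recovered (12605 genes), with 5.88% of calls false, and 67.8% between litters, with 4.23% false. The simulated noise was independent between genes, with no shifts shared within a library, so these shares may not hold for the real libraries. Libraries correlated at 0.878 to 0.955, so none were near copies. Members, gene lists and the rule for named genes were chosen with earlier results of these data known. By that rule each list gives up to 3 called genes, those of greatest size, or with none called the gene of smallest p, and some values that it allows are left out for length. Values ± are SD over mice, and p-values measure the spread between mice of these 2 litters. Alternatives covered the pseudocount, filter, scaling, variance model, litter term, mouse number, tissue content and left-out libraries. Transcripts are from GENCODE M21 and promoters from RefSeq, both GRCm38, with no coordinates taken to the other build.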

Additional observations from a re-analysis of the deposited data

Results flagged for a closer look

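Of 12 groups of 6 mice examined (5 genes and the Sprr2a sum in each genotype), 4 had a mouse set apart from the others by more than Dixon's 95% critical value of 0.625 on the log2(TPM + 0.5) scale. Chance flags about 1 in 20 groups, and the sum shares its values with the copies. Sprr2a1 in Erbb3-FF mouse 4 (992 TPM) had a gap of 0.849 of the group's range, and the Sprr2a sum in the same mouse (16719 TPM) a gap of 0.645. Sprr2a3 was set apart in ERBB3-dIE mouse 4 (279.8 TPM, gap 0.648). Sprr2b was set apart at the low end in ERBB3-dIE mouse 2 (0.59 TPM, gap 0.646).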

How the results depend on the processing

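The genotype difference of the Sprr2a sum was −0.81 to −0.62 without 1 mouse and −1.11 in litter B alone. It was 0.46 for Sprr2a3 on its own, and in the authors' deposited table −1.08 for Sprr2a1 and 0.0736 for Sprr2a3. It was −0.69 with mouse number as a replicate block. In litter A alone Sprr2a3 had −0.0094. The litter difference of the sum was −0.63 to −0.42 without 1 mouse, −0.64 (SE 0.45) with the replicate block and −0.39 (SE 0.21) with the smooth muscle covariate, neither past the threshold. For Sprr1a the litter difference turned to 0.69 with the block, 0.20 with that covariate and was −0.50 to 0.10 without 1 mouse, above 0 without ERBB3-dIE mouse 2. Members past the genotype threshold numbered 0 with no filter, with no litter term, with the replicate block, in litter A and in litter B alone, 1 when rescaled without mitochondrial genes, and 0 to 2 without 1 mouse. Between litters they numbered 2 with quantile normalization and with array weights, 1 when rescaled without ribosomal sequence, and 0 to 1 without 1 mouse. The cause was not tested. Over all genes the 676 genotype calls became 350 with no filter, 243 with no litter term, 216 with the block and 1080 with array weights, and 303 to 797 without 1 mouse. Rescaled without ribosomal sequence, 190 were higher and 754 lower, against 209 and 467. The 1078 litter calls ranged from 101 to 3059 without 1 mouse, were 2750 with array weights, 599 with median-of-ratios scaling, 465 without mitochondrial genes, 245 with no filter and 7 without the pair of ribosomal-rich libraries, and were 0 with the block or the covariate. Mouse numbers name different animals: the deviations of same-numbered mice correlated at 0.0739 to 0.357, and 2 of 6 matched their own number best. Only number 3 has a mouse of each litter, so litter values with the block rest on that pair and cannot test litter. Depth is lost in TPM, which limits Sprr2b most.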

Other observations

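The genes whose levels ran most like the Sprr2a sum over the 12 mice, by Pearson's r after litter and genotype were removed, were led by Smox (r = 0.90), which encodes spermine oxidase, and Il1rn (0.89), which encodes the interleukin-1 receptor antagonist. Mns1 (0.88), Prickle3 (0.87), Trp53inp2 (0.87), Mysm1 (0.86), Fads3 (0.86) and Ttbk2 (0.86) came next. Without that removal r was 0.85 for Smox, 0.69 for Il1rn, 0.71 for Mysm1 and 0.61 for Trp53inp2. It was lower for Fads3 (0.43), Mns1 (0.37), Ttbk2 (0.24) and Prickle3 (0.18), whose likeness holds mainly for the remainder. Mns1 and Ttbk2 were also low, with means of 0.97 and 1.29 TPM (Erbb3-FF) and 0.93 and 0.997 TPM (ERBB3-dIE). Mean levels of Smox were 28.8 TPM (Erbb3-FF) and 23.6 TPM (ERBB3-dIE), those of Il1rn 7.72 and 8.62 TPM, and neither passed between genotypes (limma adjusted p = 0.524 and 0.9995).

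For Sprr1a the list was Dusp10 (0.91), a phosphatase of stress-activated kinases, Tnfrsf12a (0.89), the TWEAK receptor, Mrpl54 (0.89), Alas1 (0.88) and Ggct (0.87). For Sprr2b it was Nfil3 (0.86), Tepsin (0.85), Jpt1 (0.85), Lrrc66 (0.85) and Rpl41 (0.84). Nfil3 and Rpl41 had r of −0.59 each with Sprr2b before litter and genotype were removed, so the likeness holds only for the remainder. These are the highest of 12605 genes with 12 mice and 3 fitted terms, and are given as a description.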
